A study of Rattus norvegicus with 44 samples.

Results

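The livers of rats given 100 mg/kg of crude 4-methylcyclohexanemethanol (MCHM) were compared with the livers of rats given corn oil alone, over the genes of 1 expression array. The comparison takes 4 arrays whose title gives 100 mg/kg and 4 whose title gives 0 mg/kg, which makes 8 of the 27 liver arrays and of the 44 arrays of the series. MCHM is a cyclic alcohol used in coal washing, and "crude" is the labels' own word for the material dosed. All animals were male Harlan Sprague Dawley rats without any genetic change named in the labels, 6 to 8 weeks old at assignment, on NTP-2000 diet, and all groups received the same corn oil volume of 5 mL/kg. Dosing was by gavage on 5 consecutive days, and the livers were taken the day after the last dose. The other liver groups are 0.1 mg/kg with 3 arrays and 1, 10, 300 and 500 mg/kg with 4 arrays each. The submitters state that arrays with batch effects had been removed, and those arrays were not analysed here. RNA was read on Affymetrix rat genome arrays, whose probe sets lie near the 3′ ends of transcripts, and all values are deposited log2 expression values, so a difference of 1 is a doubling. After control probe sets were left out, 31042 probe sets were tested, and 14217 named genes each stand for their probe set with the highest mean over the liver arrays.

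The liver meets a swallowed alcohol first, and hepatocytes oxidise it with alcohol and aldehyde dehydrogenases or conjugate it for export. Foreign compounds can also engage the nuclear receptors CAR, PXR and PPARA, the aryl hydrocarbon receptor and the oxidant sensor pathway of NRF2, each of which raises its own set of enzymes. A further layer is the integrated stress response, in which the factor ATF4 raises amino acid transporters, aminoacyl-tRNA synthetases and enzymes of serine and asparagine synthesis when amino acids run short or protein folding is disturbed. These pathways, the metabolic programmes of the liver and markers of its cell types were followed as gene lists.

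The 27 liver arrays correlated with each other at r from 0.989 to 0.994, at 0.991 to 0.992 within vehicle and at 0.990 to 0.993 between vehicle and 100 mg/kg. All 9 measured hepatocyte markers lay above the median probe set in level. Vehicle replicate 2 stood apart in *Xist*: the 4 probe sets of this RNA, made from the inactive X chromosome of females, read at least 8.25 there and 2.29 to 3.47 in the other 26 liver arrays. The Y-linked gene *Eif2s3y* read 9.07 to 9.36 in all 8 arrays, with 9.26 in vehicle replicate 2, and the labels give every animal as male. Whether that library holds RNA of a female animal was not tested. Several list counts that it moves are also given without it, some of them in a closing section. Replicates are biological, by the array titles.

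No gene separated 100 mg/kg from vehicle after adjustment over all probe sets. With limma and Benjamini-Hochberg adjustment, 0 of 31042 probe sets (0.0%) had an adjusted p under 0.05, and the smallest adjusted p was 0.523. At an unadjusted p under 0.05 there were 1872 probe sets (6.03%), of which 1040 were higher and 832 lower, where a p with no differences at all would give 1552 on average. The balance of directions was not stable: the higher ones made up 64.3% with each array centred on its median, 68.7% among probe sets above the median level and 50% without dosed replicate 4. Without vehicle replicate 2 the unadjusted count was 1659, and the adjusted count was again 0. Among genes, 546 (3.84%) were higher and 359 (2.53%) lower at an unadjusted p under 0.05, and these shares are the background against which each gene list is read. The 4 dosed arrays lay wholly above the 4 vehicle arrays in 269 genes (1.89%) and wholly below them in 229 (1.61%). Differences were small: the median absolute difference over genes was 0.08 with a median standard error (SE) of 0.12, 124 genes differed by more than 0.5 and 24 by more than 1. No gene is therefore called higher or lower at this dose, and the values that follow describe the genes that lay farthest from vehicle relative to their error. Counts of list members use the unadjusted p and carry no test of the list.

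**Figure D1:**
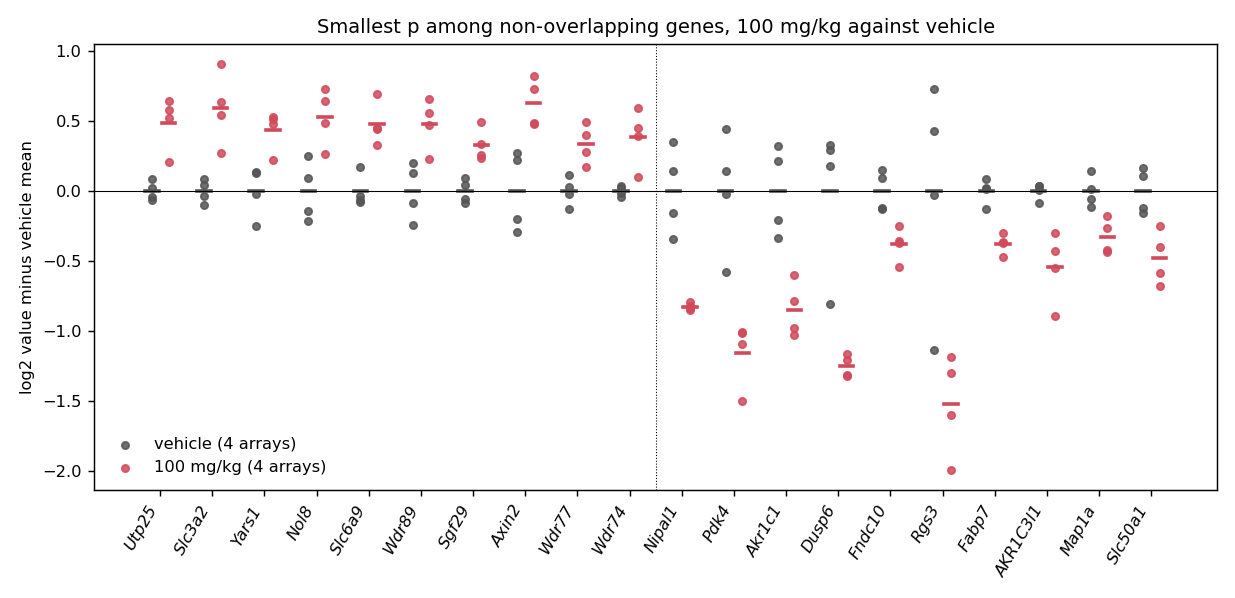
Values of the 10 higher and 10 lower genes with the smallest p among genes whose groups do not overlap, each as the log2 value minus the vehicle mean of that gene (vertical axis), for 4 vehicle arrays (grey) and 4 arrays at 100 mg/kg (red), with group means as bars. The genes were picked for this separation, from *Utp25* at 0.49 to *Slc50a1* at -0.47, and the spread of vehicle arrays is widest for *Dusp6* and *Rgs3*.

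Amino acid response genes made up the list with the largest share of members that were higher at an unadjusted p under 0.05. Of its 40 measured members 19 were higher and 1 was lower at an unadjusted p under 0.05, which is 47.5% against the background of 3.84%, and 34 of 40 differences were above 0. The median difference of the list was 0.33 where the median of all genes was 0.00. In 10 members the 4 dosed arrays lay above all vehicle arrays, and in 0 members below them. None of these members passed the adjusted threshold. The lists had been chosen with earlier results of these data known, so the rank of this list is a description only.

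*Slc3a2*, the heavy chain that carries the large amino acid exchangers to the membrane, had the smallest p of the list. It read 9.45, 9.39, 9.53 and 9.57 in vehicle and 9.76, 10.03, 10.39 and 10.12 at 100 mg/kg. The groups did not overlap, and the difference was 0.59 (SE 0.13, adjusted p 0.523), or 1.51-fold. The arginine and lysine transporter *Slc7a1* read 5.63, 5.95, 5.75 and 5.67 against 6.18, 6.11, 6.40 and 6.87, a difference of 0.64 (SE 0.17), and its other probe sets gave 0.77 and -0.06. The glycine transporter *Slc6a9* read 7.15, 7.20, 7.16 and 7.40 against 7.68, 7.67, 7.92 and 7.56, a difference of 0.48 (SE 0.12), and its other probe sets gave 0.28 and 0.08. In both transporters every dosed array lay above every vehicle array, and all 6 transporters of the list had differences above 0, from 0.16 to 0.64.

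The aminoacyl-tRNA synthetases, which load amino acids onto their tRNAs, were the most even set: 9 of 13 were higher at an unadjusted p under 0.05 and 12 of 13 differences were above 0. The tyrosine enzyme *Yars1* read 9.10, 8.87, 9.25 and 9.26 in vehicle and 9.34, 9.64, 9.65 and 9.60 at 100 mg/kg, a difference of 0.44 (SE 0.10, adjusted p 0.523). The alanine enzyme *Aars1* read 10.74, 10.77, 10.85 and 10.84 against 11.02, 10.99, 11.08 and 11.08, a difference of 0.24 (SE 0.07). The groups did not overlap in these or in *Nars1*, *Gars1* and *Sars1*, whose differences were 0.38, 0.33 and 0.26. The tryptophan enzyme *Wars1* at -0.05, *Vars1* at 0.01 and *Tars1* at 0.03 lay close to vehicle.

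Of the 6 enzymes of serine synthesis and the folate cycle, 4 were higher and 1 lower at an unadjusted p under 0.05. *Psat1* and *Phgdh*, which make serine from a glycolytic intermediate, were 0.92 (SE 0.36) and 0.67 (SE 0.27) above vehicle, and the mitochondrial folate enzyme *Mthfd2* was 0.60 (SE 0.18) above. The mitochondrial folate enzyme *Aldh1l2* was 0.21 (SE 0.10) below. *Psat1* read 6.84, 7.47, 8.04 and 8.05 in vehicle, so vehicle replicate 1 lay well under the other vehicle arrays, and 7.82, 8.61, 8.89 and 8.77 at 100 mg/kg. The groups overlapped in *Psat1* and *Phgdh*.

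These groups by role were formed after the values had been seen. The remaining 15 members, mostly stress-induced regulators, were higher at an unadjusted p under 0.05 in 3 cases, or 0 to 7 without single arrays, and ran unevenly over the arrays. *Asns*, which makes asparagine, read 6.75, 7.21, 7.97 and 7.59 in vehicle and 7.59, 8.11, 8.46 and 8.32 at 100 mg/kg, a difference of 0.74 (SE 0.30, adjusted p 0.751). *Trib3*, a pseudokinase that feeds back on ATF4, read 7.15, 7.48, 8.15 and 7.72 against 7.70, 8.39, 9.69 and 9.37, a difference of 1.17 (SE 0.44, adjusted p 0.708). *Atf4* itself was 0.09 (SE 0.16) above vehicle. In both *Asns* and *Trib3* the groups overlapped, and dosed replicate 3 was the highest array.

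Dosed replicate 3 was far above the other 3 dosed arrays in several stress genes. It read 10.74 in the fasting hormone *Fgf21* where the others read 6.95, 8.21 and 7.98, and 9.61 in the glutathione-degrading enzyme *Chac1* where they read 6.55, 6.54 and 7.70. In the mTORC1 inhibitor *Ddit4* it read 10.21 beside 6.86, 7.68 and 7.96. Without that array 15 list members were higher at an unadjusted p under 0.05 and the list median was 0.23. Leaving out each of the 8 arrays in turn, the count of higher members ran from 15 to 24 and the median from 0.23 to 0.43; without vehicle replicate 2 the count was 19 and the median 0.27.

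**Figure D2:**
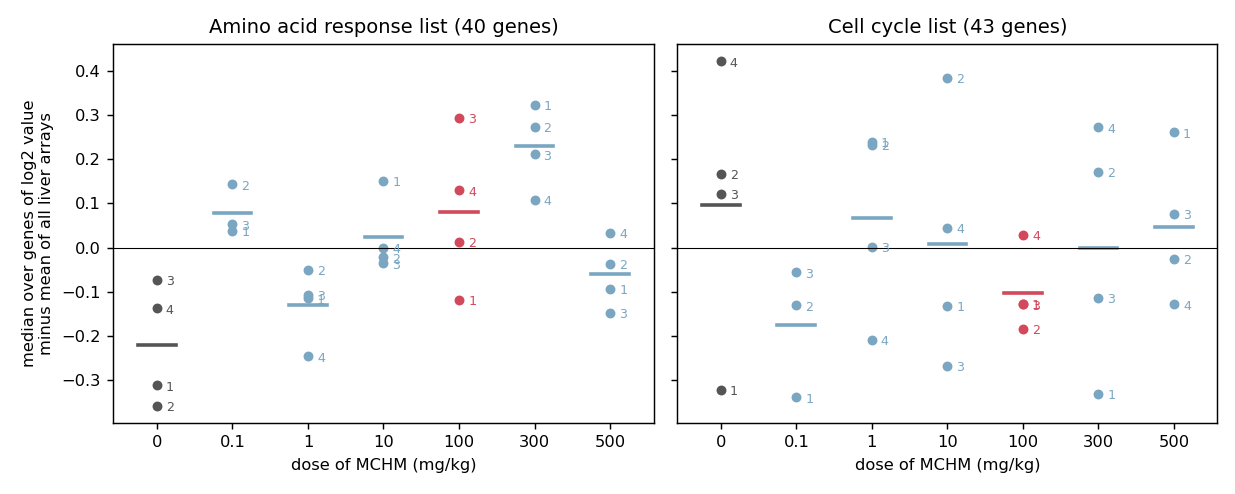
Median over the list's genes of the log2 value minus the mean of all 27 liver arrays (vertical axis) for each array, by dose of MCHM in mg/kg (horizontal axis, evenly spaced), for the amino acid response list (left) and the cell cycle list (right). Points are arrays labelled with their replicate number and bars are group means. Vehicle arrays of the amino acid response list run from -0.36 to -0.07 and overlap the arrays at 100 mg/kg, which run from -0.12 to 0.29.

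The separation of the amino acid response list depended on which arrays stood for low exposure. Its per-array median, taken as deviation from the mean of all liver arrays, was -0.31, -0.36, -0.07 and -0.14 in the vehicle arrays and -0.12, 0.01, 0.29 and 0.13 at 100 mg/kg. Of the 7 dose groups vehicle had the lowest mean of these medians. Against the same vehicle arrays the list median was 0.31 at 0.1 mg/kg, 0.06 at 1, 0.25 at 10, 0.45 at 300 and 0.18 at 500 mg/kg, which is no order by dose. Set against the pooled 0.1, 1 and 10 mg/kg groups in place of vehicle, a reading added after its values were seen, the list median at 100 mg/kg was 0.10, with 3 members higher and 1 lower at an unadjusted p under 0.05. In that comparison 1.79% of all genes were higher and 2.44% lower.

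Promoters of the list are shown for the letters that bind ATF4 with its partners, the C/EBP-ATF response element, written here as TGATGNAA and searched on both strands in the RefSeq promoters of assembly GRCr8, from 250 bases before to 50 after the gene's start. Of 37 list members with a promoter in the table, 13 (35.1%) hold the letters, against 1048 of 27457 promoters (3.82%). The list was drawn from genes that ATF4 is known to raise, so this excess comes from the choice of list and not from the arrays. The search was added to the planned one, which covered the cell cycle list only. Of these 13 genes 8 were higher at an unadjusted p under 0.05 with a median difference of 0.40, and of the 24 without the letters 10 were, with a median of 0.27. The promoters printed are those of the 3 members with the smallest p among the ones with the letters, in lower case with the match in capitals. The *Yars1* window is chr5:146819913-146820212 (+), the *Slc7a1* window chr12:11664238-11664537 (+) and the *Nars1* window chr18:60275733-60276032 (-). *Slc3a2*, *Slc6a9*, *Asns* and *Ddit3* have no match in this window, so the split is by these letters alone.
Yars1: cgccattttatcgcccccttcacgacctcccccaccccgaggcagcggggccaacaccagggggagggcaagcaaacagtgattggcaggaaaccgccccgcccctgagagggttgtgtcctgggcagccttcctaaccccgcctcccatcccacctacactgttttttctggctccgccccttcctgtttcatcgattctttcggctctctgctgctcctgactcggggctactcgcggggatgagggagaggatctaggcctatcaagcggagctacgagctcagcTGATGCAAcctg
Slc7a1: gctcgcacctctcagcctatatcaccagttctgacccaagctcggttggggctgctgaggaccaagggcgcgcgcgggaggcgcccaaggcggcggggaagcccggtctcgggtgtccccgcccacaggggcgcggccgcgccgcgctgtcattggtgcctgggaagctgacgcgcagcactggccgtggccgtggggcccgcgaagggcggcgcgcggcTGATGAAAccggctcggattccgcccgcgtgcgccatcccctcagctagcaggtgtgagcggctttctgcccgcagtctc
Nars1: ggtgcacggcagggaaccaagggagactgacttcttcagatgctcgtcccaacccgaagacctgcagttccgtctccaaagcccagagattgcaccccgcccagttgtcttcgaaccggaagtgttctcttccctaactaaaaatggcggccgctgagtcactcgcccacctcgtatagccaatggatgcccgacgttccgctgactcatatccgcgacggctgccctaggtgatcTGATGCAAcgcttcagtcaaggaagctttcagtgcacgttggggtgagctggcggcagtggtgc
A match is a description of the letters and not of binding.

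Beside the amino acid response members, 7 other genes were among the 10 higher ones with the smallest p and no overlap. *Utp25*, a part of the small-subunit processome that matures ribosomal RNA, read 6.46, 6.33, 6.39 and 6.30 in vehicle and 6.58, 7.02, 6.95 and 6.89 at 100 mg/kg. Its difference of 0.49 (SE 0.10) had the smallest p of all genes named (adjusted p 0.523), and dosed replicate 1 lay nearest to vehicle. The nucleolar protein *Nol8* was 0.53 (SE 0.13) above vehicle, and *Wdr74*, which acts in large-subunit assembly, was 0.39 (SE 0.10) above. *Wdr77*, a partner of the arginine methyltransferase Prmt5, was 0.34 (SE 0.09) above, and *Sgf29*, a histone mark reader of the SAGA complex, 0.33 (SE 0.08) above with its other, dimmer probe set at 0.01. *Wdr89* was 0.48 (SE 0.12) above vehicle. *Axin2*, a Wnt target that feeds back on the pathway and marks hepatocytes near the central vein, read 6.99, 6.51, 6.42 and 6.94 against 7.19, 7.20, 7.54 and 7.44, a difference of 0.63 (SE 0.16). Leaving out each array in turn, the differences of these genes kept their sign, for *Utp25* from 0.44 to 0.58 and for *Axin2* from 0.53 to 0.72. Against the pooled lower doses they were smaller, 0.11 for *Utp25*, 0.12 for *Nol8* and 0.18 for *Axin2*, and these genes had been picked for their distance from vehicle.

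Of the 10 lower genes with the smallest p and no overlap, 3 lay more than 1 log2 unit below vehicle. *Pdk4*, the kinase that shuts pyruvate out of oxidation in fasting, read 9.24, 10.26, 9.95 and 9.79 in vehicle and 8.80, 8.72, 8.31 and 8.79 at 100 mg/kg. It was 1.15 (SE 0.25, adjusted p 0.523) below, a 2.22-fold difference without overlap, and its second probe set was 0.55 (SE 0.17) below. *Dusp6*, the phosphatase that switches ERK off and is itself an ERK target, read 8.86, 9.99, 9.84 and 9.95 against 8.35, 8.34, 8.46 and 8.50. Its difference was -1.25 (SE 0.29, adjusted p 0.523), and its other probe sets gave -0.98 and -1.16. *Rgs3*, which dampens G protein signalling, read 7.87, 9.73, 9.44 and 8.98 against 7.41, 7.82, 7.02 and 7.71. The difference was -1.52 (SE 0.38), with 1 of its other probe sets at -0.07 and 1 at 0.20, so its probe sets disagreed. In both *Dusp6* and *Rgs3* vehicle replicate 1 lay about 1 log2 unit or more below the other vehicle arrays and close to the dosed ones.

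*Nipal1*, a membrane magnesium transporter, read 7.71, 8.40, 8.19 and 7.89 in vehicle and 7.26, 7.23, 7.20 and 7.21 at 100 mg/kg, a difference of -0.82 (SE 0.18). The dosed arrays ran from 7.20 to 7.26 only, while the vehicle SD was 0.31. *Akr1c1*, of the aldo-keto reductases that reduce steroids and carbonyls, read 7.82, 7.71, 7.16 and 7.28 against 6.47, 6.89, 6.71 and 6.52, a difference of -0.85 (SE 0.19). The gene listed as *AKR1C3l1* was 0.54 (SE 0.14) below, and the 5 other genes whose symbols begin with Akr1c ranged from -0.05 to 0.16. These reductases are near-identical in sequence and probe sets may share signal, so which copy a value reads is uncertain. *Fabp7*, a fatty acid binding protein, read 12.04, 12.18, 12.24 and 12.18 against 11.86, 11.69, 11.80 and 11.79, a difference of -0.37 (SE 0.09) without overlap. The sugar transporter *Slc50a1* was 0.47 (SE 0.13, adjusted p 0.559) below, *Fndc10* 0.38 (SE 0.09) below, and *Map1a*, a microtubule protein, 0.32 (SE 0.09) below.

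The lists of foreign compound handling had medians near vehicle at this dose. In the CAR and PXR list and in the NRF2 list the share of higher members exceeded the background of 3.84%. Of 21 CAR and PXR targets 4 were higher at an unadjusted p under 0.05 (19.0%) and 0 lower, and the list median was 0.07. *Cyp3a9*, a cytochrome of the PXR group, read 8.48, 7.63, 7.21 and 7.95 in vehicle and 9.18, 8.67, 8.80 and 8.35 at 100 mg/kg. Dosed replicate 4 lay below vehicle replicate 1, so the groups overlapped at a difference of 0.93 (SE 0.32, adjusted p 0.654). *Por*, the reductase that feeds electrons to all microsomal cytochromes, was 0.36 (SE 0.16) above and *Alas1*, the entry enzyme of heme synthesis, 0.37 (SE 0.18) above. The abundant cytochromes lay close to vehicle, *Cyp3a23-3a1* at 0.13 (SE 0.13), *Cyp3a18* at 0.18 and *Cyp3a2* at 0.07. These cytochromes also belong to families of near-identical copies. Leaving out each array in turn gave 1 to 5 higher members, with 2 without vehicle replicate 2.

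Of 25 NRF2 targets 4 were higher and 1 was lower at an unadjusted p under 0.05. *Srxn1*, which repairs oxidised peroxiredoxins, read 7.91, 7.79, 7.97 and 7.73 in vehicle and 8.12, 8.18, 8.26 and 8.33 at 100 mg/kg, a difference of 0.37 (SE 0.11, adjusted p 0.588) without overlap. Its other probe sets gave -0.13 and 0.30. Thioredoxin reductase *Txnrd1* was 0.25 (SE 0.09) above, *Gsr*, which recycles glutathione, 0.29 (SE 0.13) above and *Blvrb*, a biliverdin reductase, 0.24 (SE 0.09) above. *Nqo1*, a common NRF2 readout, lay at 0.06 (SE 0.18), *Gclc*, which limits glutathione synthesis, at 0.05 (SE 0.12), and *Osgin1*, a growth inhibitor induced by oxidants, 0.60 (SE 0.27) below.

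Of 7 aryl hydrocarbon receptor targets 0 had an unadjusted p under 0.05 in either direction. *Cyp1a1*, the most inducible of them, lay at 0.32 (SE 0.17) in a low range of 4.64 to 5.34 over the 8 arrays, and *Cyp1a2* at 0.09 (SE 0.08). The alcohol and aldehyde list, the likely route of an alcohol, had 0 of 19 members higher and 2 lower. *Aldh1a1* read 11.69, 11.63, 11.57 and 11.33 in vehicle and 11.08, 11.11, 11.02 and 11.50 at 100 mg/kg, a difference of -0.38 (SE 0.14), and mitochondrial *Aldh1b1* was 0.62 (SE 0.24) below. Dosed replicate 4 lay among the vehicle arrays in *Aldh1a1*, and *Aldh1b1* was no different from the pooled lower doses in value, at 0.00. *Adh1c*, the main liver alcohol dehydrogenase, lay at -0.18 (SE 0.13).

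**Figure D3:**
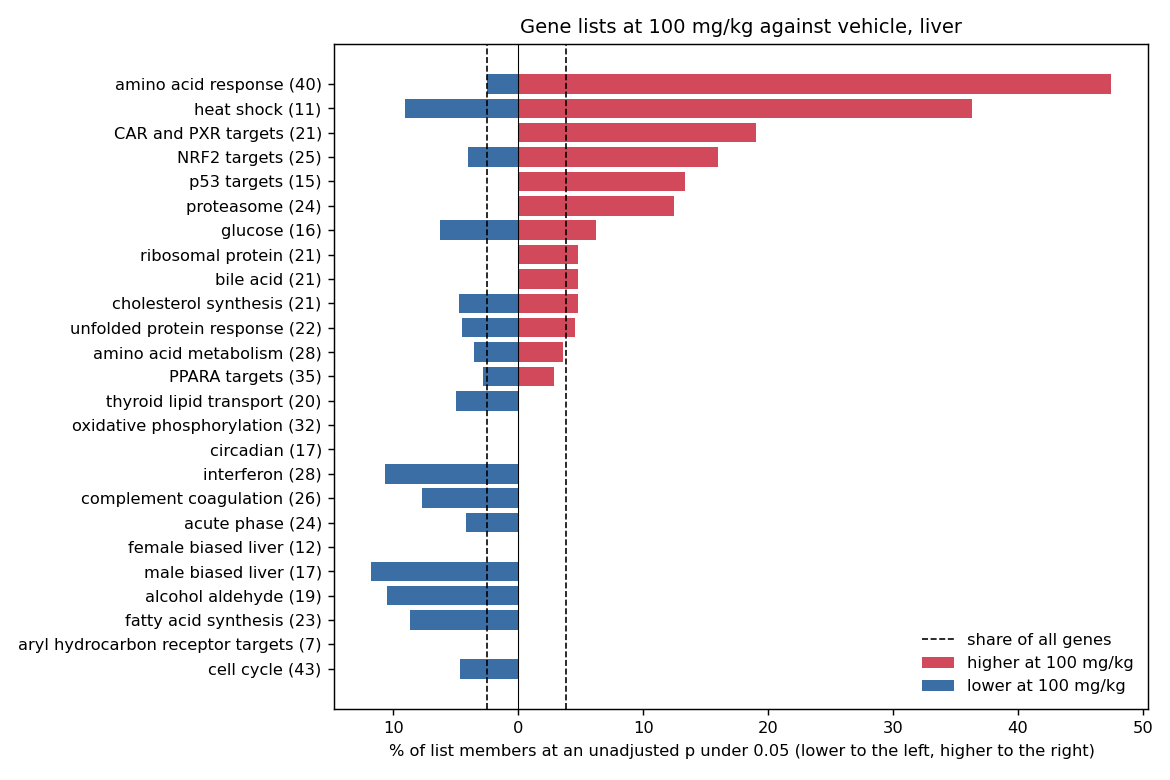
Percent of each list's measured members (number in brackets) that were higher (red, to the right) or lower (blue, to the left) at 100 mg/kg than in vehicle at an unadjusted p under 0.05. Dashed lines mark the shares over all genes, 3.84% higher and 2.53% lower. The amino acid response list reaches 47.5% higher, heat shock 36.4% of 11 members, and no member of any list passed the adjusted threshold.

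Heat shock genes had the largest share after the amino acid response list: 4 of 11 were higher (36.4%) and 1 lower at an unadjusted p under 0.05, with a median of 0.16. *Bag3*, a co-chaperone of Hsp70, read 8.24, 7.79, 7.95 and 7.80 in vehicle and 8.13, 8.35, 8.41 and 8.44 at 100 mg/kg, a difference of 0.39 (SE 0.13, adjusted p 0.664) with overlap. The small chaperones *Hspb1* and *Hspb8* were 0.57 (SE 0.23) and 0.27 (SE 0.09) above, and *Dnaja1*, a co-chaperone of Hsp70, 0.15 (SE 0.08) above. *Hspa4l*, a nucleotide exchange factor, was 0.38 (SE 0.16) below. Leaving out single arrays gave 2 to 4 higher members, and against the pooled lower doses 0 were higher and 1 lower, with a median of 0.03. Of 24 proteasome subunits 3 were higher (12.5%), and all 24 differences were above 0, in a narrow range from 0.05 to 0.21 with a median of 0.09. Subunits of 1 complex are not independent, and leaving out single arrays the count of higher members ran from 0 to 6, with 0 without vehicle replicate 3, dosed replicate 2 or dosed replicate 4.

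The unfolded protein response list had 1 of 22 members higher and 1 lower. *Herpud1*, which acts in the removal of misfolded proteins from the endoplasmic reticulum, was 0.35 (SE 0.13) above, and the transcription factor *Xbp1* 0.39 (SE 0.17) below. Vehicle replicate 1 read 11.29 in *Xbp1*, apart from the other vehicle arrays, which reached 12.12, and at the level of the dosed arrays, 11.26, 11.68, 11.30 and 11.66. Of 15 p53 targets 2 were higher (13.3%), *Tp53inp1* by 0.36 (SE 0.14) and *Aen*, a nuclease, by 0.23 (SE 0.10), and the cell cycle inhibitor *Cdkn1a* lay at 0.07 (SE 0.15). Without dosed replicate 3 the p53 count was 0, and without vehicle replicate 2 it was 1. Without vehicle replicate 2 the unfolded protein response list had 0 lower members.

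Lipid and bile acid genes showed single members far from vehicle in lists that as a whole lay near it. *Cyp7a1*, which catalyses the first and limiting step from cholesterol to bile acids, read 10.55, 8.72, 9.94 and 8.81 in vehicle and 10.43, 10.68, 11.51 and 11.22 at 100 mg/kg. The difference was 1.45 (SE 0.46, adjusted p 0.632), or 2.74-fold, with vehicle replicate 1 inside the dosed range. Leaving out single arrays the difference ran from 1.19 to 1.8. The bile acid list had 1 of 21 members higher and 0 lower, and *Cyp8b1*, which sets the balance of bile acid species, lay at 0.36 (SE 0.20).

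*Scd*, the desaturase that makes monounsaturated fatty acids, read 10.38, 11.69, 10.89 and 12.61 in vehicle and 9.35, 11.01, 10.78 and 10.35 at 100 mg/kg. The difference was -1.02 (SE 0.44, adjusted p 0.768), the groups overlapped, and the vehicle arrays alone spanned more than 2 log2 units. Of 23 fatty acid synthesis genes 0 were higher and 2 lower, *Scd* and the elongase *Elovl2* at -0.30 (SE 0.13), yet 17 of 23 differences were above 0 and *Fasn* lay at 0.18 (SE 0.23). Without vehicle replicate 2, the high array of *Elovl2*, 0 members were lower. Of 21 cholesterol synthesis and uptake genes 18 lay above 0 with a median of 0.16, with 1 higher and 1 lower at an unadjusted p under 0.05. *Tmem97*, a sterol-responsive receptor, was 0.33 (SE 0.09) above and *Stard4*, a cholesterol carrier, 0.50 (SE 0.23) below, with its other probe sets at -0.27 and -0.03. Without vehicle replicate 1 the count of higher members was 5.

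Of 35 PPARA targets 1 was higher and 1 lower, and the median was 0.00. The higher one was *Plin2*, the coat protein of lipid droplets, which read 11.50, 11.10, 11.56 and 11.37 in vehicle and 11.67, 11.77, 12.18 and 11.59 at 100 mg/kg, a difference of 0.42 (SE 0.16) without overlap, and the lower one was *Pdk4*. The other probe set of *Plin2* gave 0.06, and without vehicle replicate 2 the list had 0 higher and 2 lower members. *Cyp4a1*, which hydroxylates fatty acids, lay at -0.01 (SE 0.15), *Eci1*, an isomerase of fatty acid oxidation, at 0.09 (SE 0.11) and *Cpt1a*, the gate of mitochondrial fatty acid entry, at 0.05 (SE 0.14). Of 16 glucose genes 1 was higher, the glucose transporter *Slc2a2* at 0.26 (SE 0.10), and 1 lower, again *Pdk4*. Of 28 enzymes of amino acid breakdown and the urea cycle 1 was higher, tyrosine aminotransferase *Tat* at 0.84 (SE 0.39) with dosed replicate 3 the highest array at 10.71, and 1 lower, *Bhmt*, which remethylates homocysteine, at -0.33 (SE 0.16). Without vehicle replicate 1 there were 5 higher and 0 lower members of that list, and without vehicle replicate 2 there were 0 of either.

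Sex-biased genes, secreted liver proteins and interferon genes had few members apart from vehicle. *Socs2*, the feedback inhibitor that growth hormone raises through STAT5, read 6.16, 7.83, 6.80 and 7.26 in vehicle and 4.39, 6.49, 5.39 and 6.36 at 100 mg/kg. The difference was -1.35 (SE 0.45, adjusted p 0.639), and the groups overlapped. The growth hormone receptor *Ghr* was 0.22 (SE 0.08) below in its brighter probe set and at -0.03 in the other. The male-biased list also holds genes of growth hormone signalling, among them *Socs2* and *Ghr*. Of its 17 measured members these were the only 2 with an unadjusted p under 0.05, and the male cytochrome *Cyp2c11* lay at 0.11 (SE 0.08). Of 12 female-biased genes 0 had one, and *Cyp2c7*, with the smallest p, lay at -0.21 (SE 0.10). Without vehicle replicate 2, the array with *Xist*, the male-biased list again had 0 higher and 2 lower members, and the female-biased list had 0 higher and 1 lower with a median of -0.14, against -0.11 with all arrays.

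The acute phase list had 0 of 24 members higher and 1 lower, the protease inhibitor *A2m*, which read 9.48, 10.41, 9.98 and 10.61 against 9.05, 9.45, 9.63 and 9.77, a difference of -0.64 (SE 0.27). Without vehicle replicate 2 that list had 1 higher and 0 lower. Of 26 complement and coagulation genes 0 were higher and 2 lower, the lectin *Mbl1* at -0.18 (SE 0.06) and the clotting factor *F5* at -0.23 (SE 0.09), both without overlap, with 1 lower without vehicle replicate 2 or dosed replicate 4. Of 28 interferon genes 0 were higher and 3 lower, *Ifit1* at -0.38 (SE 0.14), *Irgm* at -0.47 (SE 0.18) and *Rsad2* at -0.31 (SE 0.15). Without vehicle replicate 2, dosed replicate 3 or dosed replicate 4 there was 1 lower interferon gene. The thyroid and lipid transport list had 0 of 20 higher and 1 lower, *Fabp7*, and the thyroxine-binding globulin *Serpina7* read 9.89, 10.54, 10.27 and 9.86 against 9.34, 9.11, 10.00 and 10.22, a difference of -0.47 (SE 0.23) with overlap. Of 32 oxidative phosphorylation genes 0 had an unadjusted p under 0.05, and *Ndufa2*, with the smallest, lay at -0.11 (SE 0.07). Of 17 circadian genes 0 had one either, and the clock gene *Per2*, with the smallest, lay at -0.17 (SE 0.09). Of 21 ribosomal proteins 1 was higher, *Rpl30* at 0.20 (SE 0.10), at a level of 3.09 to 3.55 over the 8 arrays that is far below the median probe set.

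Cell cycle genes lay below vehicle as a list but within the spread of the vehicle arrays. Of 43 measured members 0 were higher and 2 lower at an unadjusted p under 0.05 (4.65%), 8 differences were above 0 and the median was -0.19. The mitotic checkpoint kinase *Bub1b* read 3.66, 3.93, 3.88 and 4.32 in vehicle and 3.53, 3.57, 3.67 and 3.60 at 100 mg/kg, a difference of -0.35 (SE 0.14, adjusted p 0.749), at a dim level. Thymidine kinase *Tk1* read 7.31, 7.40, 7.42 and 7.36 against 7.15, 6.99, 7.0 and 7.20, a difference of -0.29 (SE 0.12) without overlap, and its other probe sets gave -0.26 and 0.14. *Aurkb* lay at -0.45 (SE 0.25) and the proliferation marker *Mki67* at -0.55 (SE 0.36). The per-array median of the list was -0.32 in vehicle replicate 1 and 0.17, 0.12 and 0.42 in the other vehicle arrays, with -0.13, -0.18, -0.13 and 0.03 at 100 mg/kg. Without vehicle replicate 1 there were 14 lower members and the median was -0.35, and against the pooled lower doses 0 higher and 0 lower members with a median of -0.05.

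The promoters of cell cycle genes are known for the CHR letters TTTGAA and for CCAAT boxes, which in this list were both more frequent than over all 27457 promoters. TTTGAA on either strand was in 17 of 35 members with a promoter (48.6%) against 18.1%, and CCAAT in 26 of 35 (74.3%) against 37.7%. These shares come from the choice of known cell cycle genes and not from the arrays. The 3 members with the smallest p and a promoter in the table are shown, *Bub1b* at chr3:126016817-126017116 (+), *Tk1* at chr10:103544728-103545027 (-) and *Kif20a*, a mitotic kinesin at -0.53 (SE 0.32), at chr18:26504172-26504471 (+), with matches to either motif in capitals.
Bub1b: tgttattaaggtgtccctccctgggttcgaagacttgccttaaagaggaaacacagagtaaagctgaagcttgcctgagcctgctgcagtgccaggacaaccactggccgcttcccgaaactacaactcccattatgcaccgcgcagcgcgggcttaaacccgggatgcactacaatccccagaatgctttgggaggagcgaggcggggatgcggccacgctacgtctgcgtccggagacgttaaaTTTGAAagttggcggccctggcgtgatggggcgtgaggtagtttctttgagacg
Tk1: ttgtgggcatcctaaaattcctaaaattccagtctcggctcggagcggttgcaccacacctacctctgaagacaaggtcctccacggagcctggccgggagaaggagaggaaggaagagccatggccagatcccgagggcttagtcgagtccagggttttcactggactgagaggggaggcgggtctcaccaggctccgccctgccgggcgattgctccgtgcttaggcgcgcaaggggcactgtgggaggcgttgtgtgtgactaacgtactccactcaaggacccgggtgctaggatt
Kif20a: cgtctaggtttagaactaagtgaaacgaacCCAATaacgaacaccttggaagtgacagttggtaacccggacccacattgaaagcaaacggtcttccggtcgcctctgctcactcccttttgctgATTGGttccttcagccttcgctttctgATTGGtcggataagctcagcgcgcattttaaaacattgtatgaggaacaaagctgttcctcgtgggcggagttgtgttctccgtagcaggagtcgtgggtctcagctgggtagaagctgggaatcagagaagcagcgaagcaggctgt
The *Bub1b* window holds 1 TTTGAA, the *Kif20a* window 3 CCAAT and the *Tk1* window neither.

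Markers of other cell types lay close to vehicle as lists, with medians from -0.15 for 6 B and plasma cell markers to 0.04 for 7 cholangiocyte and 8 pancreas markers. In whole liver, fewer cells of a type and less RNA per cell cannot be told apart. Single markers were farther away: the duct keratin *Krt7* at -0.77 (SE 0.25), the neutrophil protein *S100a9* at -0.68 (SE 0.23) and the chemokine *Ccl5* of T and NK cells at -0.39 (SE 0.11). The neutrophil protease *Mmp9* lay at 0.35 (SE 0.13) with a dim level of 2.98 to 3.84 and its other probe set at -0.16. The hepatocyte regulator *Hnf4a* lay at 0.44 (SE 0.16), with its other probe sets at 0.17 and 0.21. *S100a9* read 5.52, 6.45, 5.51 and 5.37 in vehicle and 5.35, 5.20, 5.13 and 4.44 at 100 mg/kg, so its difference leans on vehicle replicate 2, and without that array it was -0.44. Summed over 9 neutrophil markers the log2 values ran from 33.7 to 38.0 in vehicle and from 34.4 to 35.7 at 100 mg/kg, with 8 of 9 markers below the median probe set. For 13 T and NK cell markers the sums were 66.0 to 68.3 and 64.6 to 68.1, for 12 stellate cell and fibroblast markers 82.7 to 87.0 and 82.2 to 85.3, and for 9 Kupffer cell markers 77.6 to 81.7 and 78.5 to 80.9, ranges that overlap in each case. Their part in the interferon, acute phase and cell cycle values was not tested.

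Set against the pooled 0.1, 1 and 10 mg/kg groups, 100 mg/kg again had 0 adjusted calls of 31042 (0.0%), with 1487 probe sets (4.79%) at an unadjusted p under 0.05. This comparison shares the dosed arrays with the one against vehicle, so both readings are given side by side. *Dusp6* was 1.25 below vehicle and 1.16 below the lower doses, *Nipal1* 0.82 and 0.70, *Akr1c1* 0.85 and 0.67, *Socs2* 1.35 and 1.35, and *Ccl5* 0.39 and 0.33. For higher genes named here the second value was smaller: 0.59 and 0.22 for *Slc3a2*, 1.17 and 0.26 for *Trib3*, 0.93 and 0.27 for *Cyp3a9*, 1.45 and 0.78 for *Cyp7a1*. Among lower genes the second value was also smaller for *Dusp5*, at -0.43 and -0.27, and *Ghr*, at -0.22 and -0.09. Most genes were named for their distance from vehicle, so a smaller second value can follow from that choice. *Aldh1b1*, at -0.62 against vehicle, was at 0.00 against the lower doses. Of the 35 PPARA targets 0 were higher and 6 lower than the lower doses at an unadjusted p under 0.05, with a median of -0.07. Over all genes 1.79% were higher and 2.44% lower in that comparison.

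The step from 100 to 300 mg/kg gave 0 adjusted calls (0.0%) and 1808 probe sets (5.82%) at an unadjusted p under 0.05, with 0.0962 as the smallest adjusted p. The list with the most higher members in this step was fatty acid synthesis. Of its 23 genes 13 were higher and 0 lower at 300 mg/kg at an unadjusted p under 0.05, with a median of 0.43. Over all 31042 probe sets 904 were higher and 904 lower. The step from 100 to 500 mg/kg gave 19 probe sets (0.0612%) with an adjusted p under 0.05, 15 higher and 4 lower at 500 mg/kg, and 2410 (7.76%) at an unadjusted one.

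Of the genes that rose from 100 to 500 mg/kg, 4 belong to the PPARA list, whose members act mostly in fatty acid oxidation. *Eci1* rose by 0.78 (SE 0.11, adjusted p 0.00563), *Ehhadh*, the bifunctional enzyme of peroxisomal oxidation, by 0.73 (SE 0.13, adjusted p 0.0174), *Cyp4a1* by 0.80 (SE 0.15, adjusted p 0.0251) and the thioesterase *Acot2* by 0.52 (SE 0.10, adjusted p 0.0251). *Cyp4a1* read 10.49, 10.98, 11.03 and 11.02 at the lower of these doses and 11.66, 11.70, 11.64 and 11.75 at the higher, without overlap. For these 4 genes 100 mg/kg lay at 0.09, 0.01, -0.01 and -0.18 from vehicle, with an adjusted p of at least 0.854.

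*Akr1c1* had the largest rise of the set, 1.28 (SE 0.19, adjusted p 0.00669). It averaged 7.49 in vehicle, 6.65 at 100 and 7.92 at 500 mg/kg, and its 4 arrays at 100 mg/kg, from 6.47 to 6.89, lay below all vehicle arrays. *Mro* rose by 0.51 (SE 0.07, adjusted p 0.00563), *Uroc1*, urocanase of histidine breakdown, by 0.50 (SE 0.08, adjusted p 0.00720), *Hspa4l* by 0.97 (SE 0.16, adjusted p 0.0121) and *Smyd2*, a lysine methyltransferase, by 0.60 (SE 0.11, adjusted p 0.0174). At 100 mg/kg against vehicle these 4 read -0.15, -0.15, -0.38 and -0.28. Both steps use the same 100 mg/kg arrays, so genes picked for a rise from 100 mg/kg are also picked for low values there, and these readings support nothing beyond the step itself. *Abhd1*, a serine hydrolase family member, rose by 0.47 (SE 0.09, adjusted p 0.0251). It read 8.33, 7.93, 8.03 and 7.88 in vehicle and 8.28, 8.43, 8.35 and 8.26 at 100 mg/kg, a difference of 0.29 (SE 0.09) with vehicle replicate 1 inside the dosed range. Its other, dimmer probe set gave 0.40 (SE 0.10) at 100 mg/kg against vehicle.

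The genes that fell from 100 to 500 mg/kg were *Prtfdc1*, a relative of the purine salvage enzyme, by 0.48 (SE 0.08, adjusted p 0.0121) and *Spats2l* by 0.61 (SE 0.11, adjusted p 0.0284), together with 2 probe sets annotated to *Myh1*. Those 2 averaged 9.87 and 11.27 over the liver arrays, and neither is the brightest probe set of that symbol. Whether they read this gene was not tested. *Prtfdc1* read 7.29, 7.40, 7.40 and 7.33 in vehicle, 7.51, 7.56, 7.53 and 7.55 at 100 mg/kg, then 7.19, 7.05, 7.10 and 6.90 at the top dose. Its 4 arrays at 100 mg/kg lay above all vehicle arrays, by 0.18 (SE 0.08) on average, and all 4 at 500 mg/kg below them; the shared arrays bear on this reading in the same way. Without 500 mg/kg replicate 3 the number of probe sets past the threshold was 5, without replicate 4 of that dose it was 7 and without 100 mg/kg replicate 4 it was 9, so single arrays decide much of this set.

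**Figure D4:**
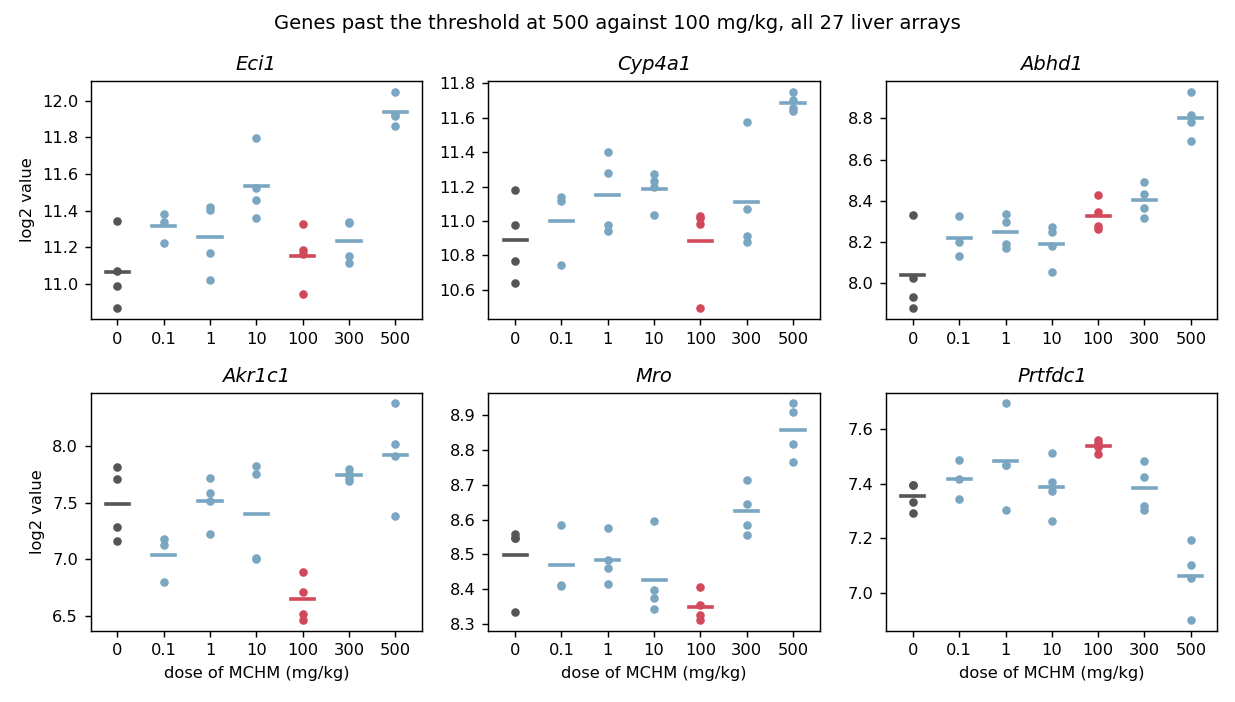
Log2 values (vertical axis) in all 27 liver arrays by dose of MCHM in mg/kg (horizontal axis, evenly spaced) of 6 genes past the adjusted threshold between 500 and 100 mg/kg. Points are arrays and bars are group means, with vehicle in grey and 100 mg/kg in red. *Eci1* and *Cyp4a1* at 100 mg/kg sit at the vehicle level, *Akr1c1* below it and *Prtfdc1* above it. The 10 mg/kg arrays of *Eci1*, from 11.36 to 11.80, lie above all vehicle and all 100 mg/kg arrays. Those of *Cyp4a1*, from 11.03 to 11.27, overlap vehicle.

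A last reading used probe sets from a contrast that holds no vehicle and no 100 mg/kg array, although the fit's error is pooled over all liver arrays. The mean of 300 and 500 mg/kg against the pooled 0.1, 1 and 10 mg/kg groups gave 172 probe sets (0.554%) with an adjusted p under 0.05, 105 higher and 67 lower at the high doses. At 100 mg/kg against vehicle, 72 of the 105 (68.6%) lay above 0 where 49.3% of all probe sets did, with a median of 0.08. Of the 67, 52 (77.6%) lay below 0 where 50.7% of all did, with a median of -0.08. These medians compare with 0.31 and -0.40 in the contrast that chose the sets, so the median displacement at 100 mg/kg was small. In the same direction, 12 of the 105 and 7 of the 67 had an unadjusted p under 0.05. Over all 31042 probe sets 1040 were higher and 832 lower at that p, a smaller share in both directions. Leaving out each of the 8 arrays gave 63.8% to 77.1% for the higher and 64.2% to 77.6% for the lower set.

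*Thrsp*, a lipogenic gene under thyroid hormone control, was 1.37 higher at the high doses in the probe set that stands for it and 0.38 (SE 0.26) above vehicle at 100 mg/kg, and the elongase *Elovl6* was 1.09 higher and 0.44 (SE 0.30) above. *Gsta3*, a glutathione transferase, was 1.27 higher at the high doses and lay at -0.12 (SE 0.33) at 100 mg/kg. *Scd* went the other way, 1.60 higher at the high doses and 1.02 (SE 0.44) below vehicle at 100 mg/kg. *Nim1k*, a kinase, was 1.36 lower at the high doses and 0.32 (SE 0.30) below vehicle at 100 mg/kg, and *Serpina7* 0.79 lower and 0.47 (SE 0.23) below. None of these 6 had an adjusted p under 0.05 at 100 mg/kg. They were picked for the size of their high-dose difference after the values were seen.

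**Figure D5:**
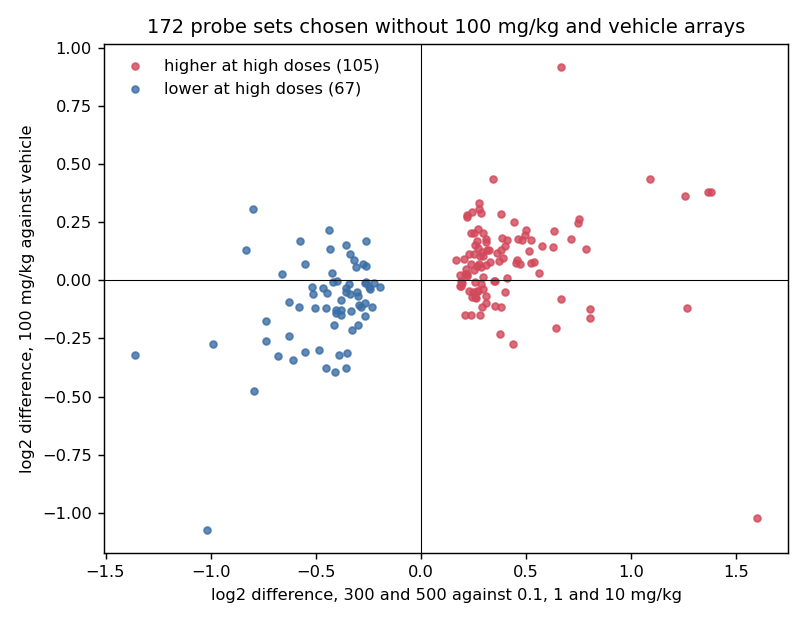
Each point is 1 of 172 probe sets with an adjusted p under 0.05 between the high doses (300 and 500 mg/kg) and the low doses (0.1, 1 and 10 mg/kg), whose log2 difference is on the horizontal axis, against its log2 difference between 100 mg/kg and vehicle on the vertical axis. Of 105 higher probe sets (red) 72 lie above 0 and of 67 lower ones (blue) 52 lie below 0.

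Leaving out each of the 8 arrays in turn gave calls at 100 mg/kg against vehicle in 1 case. Without dosed replicate 1 both probe sets of *Otub2*, a deubiquitinase, passed the threshold, at 1.22 (SE 0.18, adjusted p 0.0140) and 1.14 (SE 0.18, adjusted p 0.0169). With all arrays they were at 0.92 and 0.91 with an adjusted p of 0.523. *Otub2* read 6.68, 6.56, 6.49 and 6.85 in vehicle and 6.66, 7.65, 8.34 and 7.58 at 100 mg/kg, so dosed replicate 1 lay among the vehicle arrays and the other 3 above all of them.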

How the data were processed

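Total RNA of rat liver was hybridised to 1 array per sample, per the labels' protocols. The deposited values are log2 expression summarised by RMA, per the submitters' processing notes; the version and the probe grouping used are not stated in the sources read. RMA equalises the arrays' distributions, so a shift of most transcripts would not be seen. No scanner files were used, so no detection calls were made. Of 31042 probe sets, 20826 have 1 symbol, 436 several and 9780 none, and symbols were updated through gene IDs (GRCr8). A few genes are not reported here.

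The 27 liver arrays in 7 dose groups were fitted with limma 3.58.1 (R 4.3.3; lmFit, eBayes), two-sided, with Benjamini-Hochberg adjustment at 0.05; every SE and adjusted p is from it. The fit was tested on simulated data. Named are the 10 genes each way with the smallest p, no overlap and a mean above the median probe set, 1 or 2 members per list, up to 4 genes each way called between other doses, and a fixed list. The genes and lists were chosen with earlier results of these data known, and role groups afterwards. Of the list members, 5 were matched through synonyms. The number of arrays limits the precision.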

Additional observations from a re-analysis of the deposited data

Results flagged for a closer look

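Within the 4 vehicle and the 4 dosed arrays, 184 group tests of named genes asked whether the highest or lowest array lay far from the other 3, and 16 did. Chance alone gives about 1 in 20. Vehicle replicate 1 was low in *Dusp6* (8.86, others 9.84 to 9.99) and *Xbp1* (11.29, others up to 12.12) and high in *Nqo1* (7.95, others 7.22 to 7.34). Vehicle replicate 2 was high in *S100a9* (6.45, others 5.37 to 5.52), *Elovl2* (10.02, others 9.85 to 9.87) and *Xist* (8.25, others 3.00 to 3.01). Vehicle replicate 3 was high in *Aldh1b1* (8.39, others 7.94 to 7.96) and low in *Mro* (8.33, others 8.55 to 8.56). Vehicle replicate 4 was high in *Cdkn1a* (8.15, others 7.63 to 7.67).

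Dosed replicate 1 was low in *Yars1* (9.34, others 9.60 to 9.65), *Cyp1a1* (4.91, others 5.29 to 5.34), *Hnf4a* (11.83, others 12.03 to 12.07) and *Cyp4a1* (10.49, others 10.98 to 11.03). Dosed replicate 2 was high in *Spats2l* (6.11, others 5.72 to 5.79). Dosed replicate 3 was low in *Pdk4* (8.31, others 8.72 to 8.80) and high in *Cdkn1a* (8.24, others 7.68 to 7.75).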

How the results depend on the processing

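The count of adjusted calls at 100 mg/kg against vehicle was 0 under all settings except without dosed replicate 1, so that leaving out 1 array gave 0 to 2. With only the probe sets above the median level the unadjusted count was 1222, the one against the pooled lower doses 780 and the one from 100 to 300 mg/kg 1059. From 100 to 300 mg/kg leaving out 1 array gave 0 to 3 adjusted calls. From 100 to 500 mg/kg the 19 calls became 50 above the median level, 60 with an intensity trend and robust estimation, and 5 to 20 without single arrays. With the replicate number as a block, 100 mg/kg against vehicle gave 0 adjusted and 2017 unadjusted calls, and 500 against 100 mg/kg 15. Same-numbered vehicle and 100 mg/kg arrays correlated at -0.06 to 0.12 in their deviations, and 1 of 4 vehicle arrays correlated best with its own number. These 4 pairs are too few to decide whether the numbers pair the arrays. Leaving out single arrays, *Cyp3a23-3a1* ran from -0.017 (without vehicle replicate 3) to 0.24, *Nqo1* from -0.017 (dosed replicate 2; -0.015 without vehicle replicate 4) to 0.23 and *Cdkn1a* from -0.063 (dosed replicate 3) to 0.19. *Cyp4a1*, at -0.01, turned to 0.0046 with median-centred arrays, 0.029 with array weights, and ran from -0.093 to 0.12 without single arrays; the causes were not tested. Of 1351 recomputed values of 91 genes 1341 kept direction and side of the threshold, and 471 of 481 list medians moved by less than the spread between replicates. Vehicle replicate 2 also moved list counts at an unadjusted p under 0.05. Without it the amino acid response, heat shock and cholesterol lists had 0 lower members and the cell cycle list 1. The bile acid list then had 2 higher and 1 lower, the proteasome list 1 higher and the ribosomal protein list 0 higher.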

Other observations

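Gene groups put together after the values had been seen are given here as counts, with no test. Over all genes 3.84% were higher and 2.53% lower than vehicle at an unadjusted p under 0.05. Genes already named above, among them *Utp25*, *Nol8*, *Dusp6*, *Socs2* and *Ghr*, are counted again in these groups. Of 38 genes whose symbol begins with Utp, Nop, Nol, Rrp or Noc and a number, most of them proteins of the nucleolus, 12 were higher and 0 lower than vehicle at an unadjusted p under 0.05, 34 differences were above 0, and the median was 0.13. *Nop56*, of the particle that methylates ribosomal RNA, read 8.62, 8.61, 8.76 and 8.77 in vehicle and 8.79, 8.94, 9.49 and 9.0 at 100 mg/kg, a difference of 0.36 (SE 0.12, adjusted p 0.653). Leaving out single arrays gave 5 to 12 higher members. Against the pooled lower doses 0 members were higher and 0 lower, with a median of 0.03.

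Of 14 measured genes that ERK signalling raises or that feed back on it, 0 were higher and 2 lower, *Dusp6* and *Dusp5*, the latter at -0.43 (SE 0.20) without overlap. Leaving out single arrays gave 1 to 4 lower members. *Egr1*, an immediate early gene, read 8.43, 9.32, 10.44 and 8.78 in vehicle and 8.43, 8.43, 8.63 and 8.42 at 100 mg/kg, so the dosed arrays ran from 8.42 to 8.63, near the lowest vehicle array. *Cish*, a STAT5 feedback gene, read 4.96, 7.59, 6.97 and 6.35 in vehicle and 5.12, 4.98, 5.45 and 5.29 at 100 mg/kg, a difference of -1.26 (SE 0.58). Vehicle replicate 1 lay with the dosed arrays in both genes, and 3 of 9 growth hormone and STAT5 genes, *Socs2*, *Ghr* and *Cish*, were lower at an unadjusted p under 0.05 and 0 higher.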
